A study of Mus musculus with 4 samples.

Results

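The 7 genes described here encode the core of MHC class II antigen presentation in mouse: Cd74, H2-Aa, H2-Ab1, H2-Eb1, H2-DMa, H2-DMb1 and Ciita. They were chosen by name, and each was read from the transcript row with the highest mean count. All 7 have a row among the 24063 gene symbols of the deposited tables. The data are poly-A RNA libraries of 4 tumours of C57BL/6 mice (C57BL6/J in the sample titles), all labelled with MYC;PMEPA1 overexpression and with delivery by hydrodynamic tail vein injection, a rapid injection that carries DNA mainly into hepatocytes. The tumours carry the replicate numbers 1, 5, 9 and 10, received no treatment, and share a label of 8 to 10 passages, a term of cell culture. The labels give the tissue as tumor, but with that passage label they do not settle whether the RNA came from tumours taken directly or from tumour cells kept in culture. The libraries are called tumours here as labelled, and the levels of leukocyte and class II genes below carry this doubt. Separate animals are not stated in the labels, so the spread between tumours may be partly technical. There is 1 group and no control, so the spread between tumours is the measurement, and nothing here bears on the effect of MYC or PMEPA1.

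MHC class II molecules present peptides from endosomes to CD4 T cells. An alpha and a beta chain pair in the endoplasmic reticulum with the invariant chain, CD74, which guides them to endosomes, where cathepsins trim it and H2-DM exchanges its last fragment for an antigenic peptide. Macrophages, dendritic cells and B cells carry these genes constitutively, other cells mostly after interferon-gamma, and both routes run through the coactivator CIITA, which docks on the factors RFX, CREB and NF-Y at the X and Y boxes of class II promoters. Hepatocytes of normal liver show little class II, and resident macrophages, the Kupffer cells, are its main carriers in the organ beside dendritic cells.

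Letters like the cores of the X and Y boxes were looked for in the promoters of the members. Whether they bear on the levels in the tumours was not tested. RefSeq promoter windows of 300 bases on GRCm38.p6, 250 before and 50 after the annotated start, were at hand for 4 of the 7 members: H2-Aa, H2-Eb1, H2-DMb1 and H2-DMa. The X box core was searched as CTNNNAAC and the Y box core as ATTGG, in letters chosen after these sequences had been read. The capitals mark these cores, and each line runs 5′ to 3′ on the strand of the gene, upstream of the RefSeq start. H2-Aa and H2-Eb1 are shown as classical chains, and H2-Ob, no member, as a class II gene of B cells with the same pair of cores.
H2-Aa (chr17:34287855-34287919, minus strand): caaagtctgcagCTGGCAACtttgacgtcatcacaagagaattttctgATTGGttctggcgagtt
H2-Eb1 (chr17:34305761-34305824, plus strand): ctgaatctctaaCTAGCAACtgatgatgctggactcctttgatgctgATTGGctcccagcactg
H2-Ob (chr17:34238803-34238864, plus strand): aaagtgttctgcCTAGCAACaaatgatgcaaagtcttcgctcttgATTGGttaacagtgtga

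The pair was found in 3 members, H2-Aa, H2-Eb1 and H2-DMb1, with a gap between the cores of 28, 27 and 28 bases, in H2-Ob with a gap of 25, and in H2-DMb2. The ATTGG core began 48 bases before the RefSeq start in H2-Aa, 59 in H2-Eb1 and 57 in H2-Ob. In H2-DMb1 the pair lies upstream of the RefSeq start but inside the first exon of a GENCODE transcript, so its letters are not shown. Of the 5 windows of members, H2-DMa had 2, and neither held the pair. Of 32851 promoter windows of this length, 1.56% held CTNNNAAC followed by ATTGG after 10 to 45 bases on either strand, while 41.1% held CTNNNAAC and 37.4% held ATTGG, with or without the other. These matches are descriptions of letters, and they show no binding.

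The 4 libraries differed in depth and in blood cell genes. Gene totals lay between 41547938 counts in tumour 5 and 51939623 in tumour 1, so that 3 counts correspond to between 0.0524 and 0.0892 counts per 1000000 (CPM, scaled by TMM, edgeR's trimmed mean of M-values). Tumour 9 stood apart by neutrophil genes: all 6 of a short list were highest there, with a summed level of 408 CPM in tumour 9 against 9.16, 8.97 and 20.8 CPM in tumours 1, 5 and 10. Among them, S100a9 reached 140.0 CPM and Ngp 115 CPM in tumour 9, while no other tumour exceeded 6.78 and 3.33 CPM. Tumour 10 stood apart by hepatocyte genes, with a summed level of 25052 CPM over 6 genes, against at most 14056 CPM in the others. The spread and the order of the members are therefore also given without each of these tumours.

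Class II transcripts were present in every tumour at low to moderate levels, with the highest level of all 7 members in tumour 9. The summed level of the members was 40.8, 24.1, 96.0 and 52.1 CPM in tumours 1, 5, 9 and 10. Each member's log2 CPM was set against its own mean over the 4 tumours. The mean of this difference over the 7 members was -0.23 in tumour 1, -0.88 in tumour 5, 0.97 in tumour 9 and 0.14 in tumour 10. In bulk RNA, fewer cells that carry class II and less class II RNA per cell cannot be told apart.

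**Figure D1:**
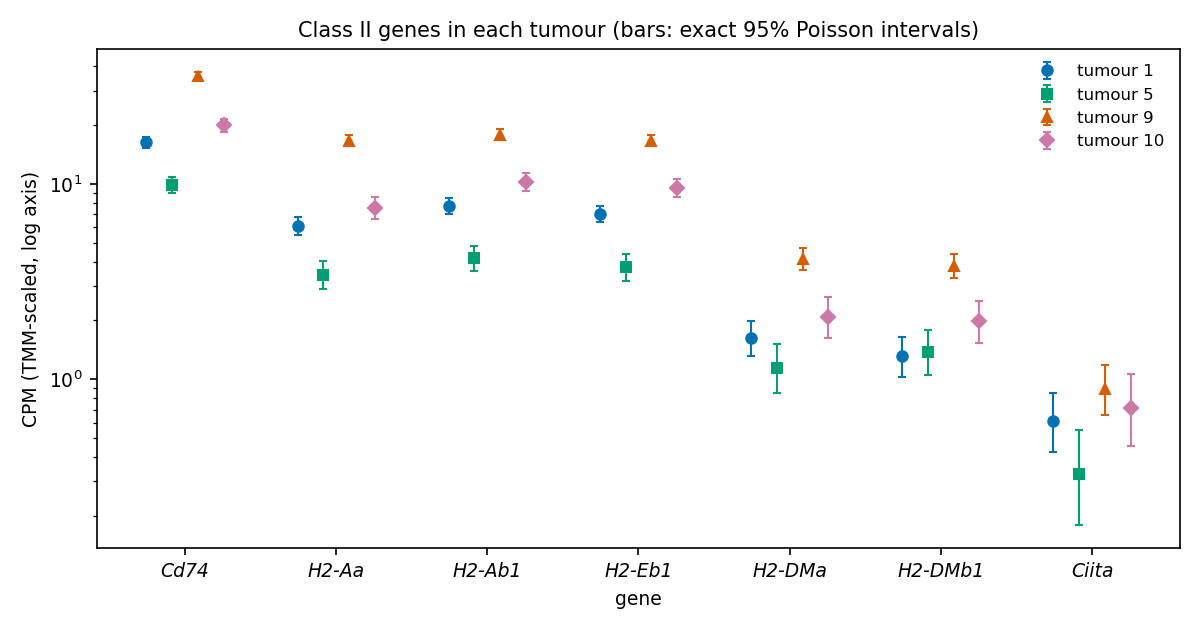
CPM of the 7 class II genes on a log axis, 1 point per tumour, with exact 95% Poisson intervals that cover counting error only. Tumour 9 is highest for all 7 genes, and tumour 5 is lowest for 6 of them, with H2-DMb1 at 1.38 CPM in tumour 5 and 1.31 CPM in tumour 1.

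Cd74, the invariant chain, was the most abundant member (NM_001042605, 1415 bases). It had 16.4, 9.92, 35.9 and 20 CPM in tumours 1, 5, 9 and 10, from 937, 425, 1928 and 672 counts. Tumour 9 was the highest and tumour 5 the lowest, and no 2 neighbours in the order of tumours had overlapping counting intervals. These intervals do not cover the scaling, on which the place of tumour 10 above tumour 1 rested. The mean was 20.5 ± 11.0 CPM (SD, n = 4). Mouse Cd74 makes a short and a long form, but the second row, NM_010545, had 933, 421, 1912 and 672 counts, nearly those of the first, so the 2 forms cannot be told apart in these tables.

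The classical chains followed the same order of tumours. H2-Ab1, the beta chain of I-A (NM_207105), lies on the plus strand of chromosome 17, 34257689 to 34269419, in GRCm38, and had 7.74, 4.18, 17.9 and 10.2 CPM in tumours 1, 5, 9 and 10. H2-Aa, the alpha chain of I-A (NM_010378), lies on the minus strand at 34282744 to 34287823 and had 6.12, 3.43, 16.7 and 7.55 CPM. H2-Eb1, the beta chain of I-E (NM_010382), lies on the plus strand at 34305867 to 34316674 and had 7.04, 3.76, 16.7 and 9.54 CPM. GENCODE lists an antisense transcript across the start of H2-Eb1, whose reads cannot be separated here. Their means were 10.0 ± 5.83 CPM for H2-Ab1, 8.44 ± 5.74 CPM for H2-Aa and 9.26 ± 5.50 CPM for H2-Eb1 (SD, n = 4 each). For each of the 3 chains the levels ran from tumour 9 through 10 and 1 to 5, and the intervals of neighbours overlapped only for H2-Aa between tumours 10 and 1. For these chains too, the place of tumour 10 above tumour 1 rested on the scaling. The partner of H2-Eb1, the I-E alpha chain, is disrupted by a deletion in C57BL/6 mice, and its row, H2-Ea-ps, had 0 counts in all 4 tumours.

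The loading genes were lower but kept tumour 9 on top. H2-DMa, the alpha chain of the peptide exchange factor H2-DM (NM_010386), had 1.62, 1.14, 4.13 and 2.08 CPM in tumours 1, 5, 9 and 10, from 93, 49, 222 and 70 counts. H2-DMb1, one of its beta chains (NM_010387), had 1.31, 1.38, 3.82 and 1.99 CPM, from 75, 59, 205 and 67 counts. For both genes the interval of tumour 9 lay above those of the other tumours, which overlapped between neighbours. H2-DMb2, the second beta chain gene, had 17, 3, 20 and 4 counts, at most 0.372 CPM. The longest coding transcripts of H2-DMb1 and H2-DMb2 were 95% identical over 1211 aligned bases, so their split of reads is uncertain.

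Ciita, the master activator, was near the lower end of what these libraries measure. It lies on chromosome 16, 10480059 to 10528418, and its row (NM_001243760) had 0.612, 0.327, 0.893 and 0.714 CPM in tumours 1, 5, 9 and 10, from 35, 14, 48 and 24 counts. Tumour 9 was highest and tumour 5 lowest here too, but the counting intervals of all neighbours overlapped. The mouse gene has several promoters used by different cell types, but its other rows, NM_007575 and NM_001243761, had 35, 14, 44 and 24 counts each, so promoter use cannot be read from these tables. With a mean of 0.636 ± 0.237 CPM (SD, n = 4), Ciita missed the minimum mean of 1 CPM for the tests, and the other 6 members passed it.

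Per transcript length, the members kept a steady ranking in which the invariant chain exceeded each classical chain. Cd74 averaged 14.5 ± 7.8 CPM per kb, H2-Ab1 8.40 ± 4.89, H2-Aa 7.89 ± 5.37, H2-Eb1 5.55 ± 3.30, H2-DMb1 1.65 ± 0.91, H2-DMa 1.35 ± 0.793 and Ciita 0.119 ± 0.0442 CPM per kb (SD, n = 4 each). Within tumours, Cd74 exceeded H2-Ab1 in 4 of 4, by 1.65 to 2 times. H2-Ab1 and H2-Aa were the closest pair among the abundant members, with H2-Ab1 higher in 3 of 4 tumours and a mean log2 ratio of 0.13 ± 0.14, and their order is within its spread. H2-DMb1 exceeded H2-DMa in 4 of 4 tumours, by 1.04 to 1.55 times. Per kb, the counting intervals of both genes overlapped in every tumour, so their order is uncertain.

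**Figure D2:**
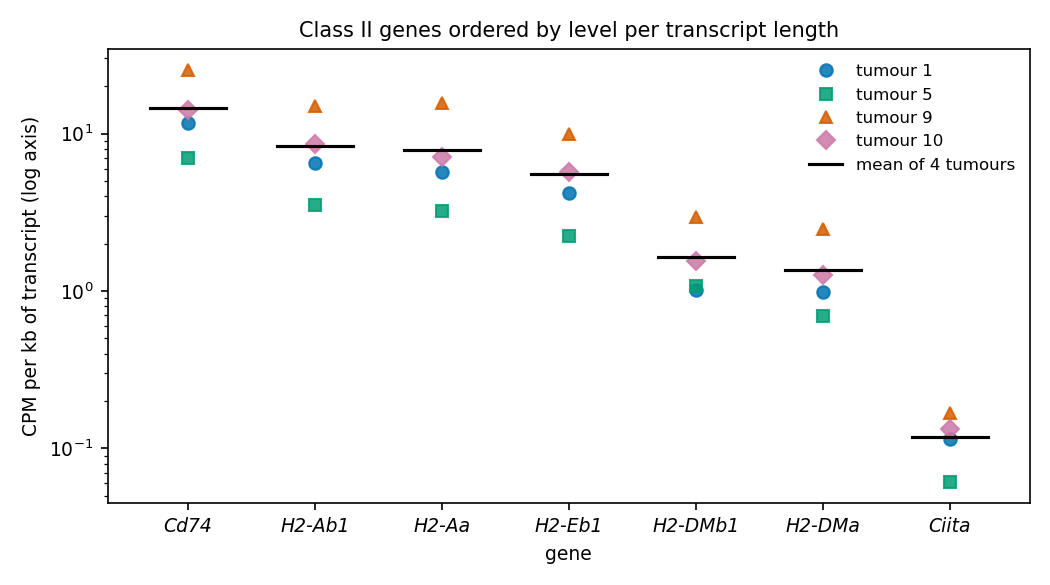
Level of each class II gene in CPM per kb of transcript on a log axis, 1 point per tumour with the mean as a bar, ordered by mean. Cd74 leads at a mean of 14.5 CPM per kb, and Ciita is lowest at 0.119 CPM per kb.

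Ratios between the members varied less than the members themselves. H2-Eb1 over H2-Ab1, per kb, was 0.650, 0.643, 0.666 and 0.667 in tumours 1, 5, 9 and 10, a highest value 1.04 times the lowest, while H2-Ab1 itself was 4.29 times as high in tumour 9 as in tumour 5 (95% counting interval 3.66 to 5.06). H2-Aa over H2-Ab1 was 0.882, 0.916, 1.04 and 0.824. Cd74 over H2-Ab1 was 1.78, 2, 1.69 and 1.65, highest in tumour 5. The summed H2-DM genes stood to the 3 classical chains as 0.122, 0.197, 0.134 and 0.131, again highest in tumour 5, where the counts were lowest. Ciita over the 3 chains, also per kb, was 0.00695, 0.00680, 0.00410 and 0.00623, lowest in tumour 9. All these ratios are within a library, so its scaling does not enter them.

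Between tumour 9 and tumour 5, the extremes for 6 of the 7 members, the fold differed by member. It was 3.62 for Cd74 (95% counting interval 3.25 to 4.03), 4.85 for H2-Aa (4.07 to 5.82) and 4.45 for H2-Eb1 (3.76 to 5.29). For the loading genes it was 3.61 for H2-DMa (2.64 to 5.03) and 2.77 for H2-DMb1 (2.06 to 3.77), and for Ciita 2.73 (1.48 to 5.37). These tumours were picked for their values, so the folds are descriptions. Without tumour 9, the highest over the lowest of the other 3 tumours was 1.48 to 2.48 over the members.

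The spread between tumours exceeded counting noise for every member tested, as it did for nearly all genes. In a Poisson heterogeneity test with Benjamini-Hochberg adjustment over 13129 genes, 6 of 6 tested members passed, where the share of all genes was 98.7%, so this count says nothing particular to class II. The SD of log2 CPM was 0.77 for Cd74, 0.94 for H2-Aa, 0.87 for H2-Ab1, 0.89 for H2-Eb1, 0.77 for H2-DMa and 0.70 for H2-DMb1, against a median of 0.45 over all genes tested. Each member's SD thus lay between percentile 71.5 and percentile 81.6 of all genes. Without tumour 9 the SDs were 0.51, 0.57, 0.64, 0.67, 0.41 and 0.30, in the same order of genes, and without tumour 10 they were 0.93, 1.15, 1.05, 1.07, 0.94 and 0.85.

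The members also shared an order of tumours. Of 6 tested members, 6 were highest in tumour 9, as were 21.6% of all genes tested, and 5 were lowest in tumour 5, as were 20.3% of all genes. The full order of tumours 9, 10, 1 and 5 held for 5 of the 6, and for 4.81% of all genes. The members were read from the same 4 libraries, so they are not independent of each other. Without tumour 9, 6 of all 7 members were still lowest in tumour 5, and without tumour 10 all 7 were highest in tumour 9 and 6 lowest in tumour 5. The place of tumour 10 above tumour 1 rested on the scaling: it held for 7 of 7 members under TMM and for 1 of 7 with total counts alone, which move the median gene by -0.32 log2 units in tumour 10 and by 0.14 in tumour 1.

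No member passed the test of a single tumour against the other 3. In edgeR's quasi-likelihood test, with Benjamini-Hochberg adjustment across every gene and tumour at once, 0 of 6 members and 0% of 13129 genes were called in each of tumours 1, 5, 9 and 10. For tumour 9 the log2 fold changes over the other 3 were 1.22 ± 0.51 for Cd74, 1.55 ± 0.60 for H2-Aa, 1.28 ± 0.63 for H2-Ab1 and 1.30 ± 0.64 for H2-Eb1 (fitted value ± SE). Those of the loading genes were 1.35 ± 0.65 for H2-DMa and 1.29 ± 0.63 for H2-DMb1. Their median over the members was 1.30, beside -0.12 over all genes tested, and the edgeR adjusted p lay between 0.693 for H2-Aa and 0.875 for H2-Eb1. At an unadjusted p of 0.05, edgeR with TMM called 0 of 6 members in any tumour, higher or lower. Of all genes, 3.76% were called higher and 1.89% lower in tumour 9, 0.427% and 0.289% in tumour 1, 0.617% and 0.305% in tumour 5, and 13.9% and 8.26% in tumour 10. In tumour 9, whether members passed the unadjusted threshold changed with scaling, filter and tool, and most when tumour 10 was left out. None was called after adjustment. With total counts alone, the members' log2 fold changes there ran from 1.42 for Cd74 to 1.75 for H2-Aa. With no filter on low counts they ran from 0.70 for Ciita to 1.55 for H2-Aa. From Cd74 to H2-Aa, the DESeq2 Wald test gave 1.22 to 1.55 and limma-voom 1.28 to 1.63. For tumour 5 the log2 fold changes ran from -1.56 for H2-Aa and H2-Eb1 to -0.78 for H2-DMb1, with edgeR adjusted p values of at least 0.889. The single tumour is assumed to vary as the other 3 do, so each test describes a library.

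The other class II chains were at or near the detection floor. None of 5 reached a mean of 1 CPM. H2-Oa and H2-Ob, which form H2-DO, the inhibitor of H2-DM in B cells, had 3, 0, 13 and 2 counts and 19, 5, 13 and 6 counts in tumours 1, 5, 9 and 10. H2-Ob was thus highest in tumour 1, at 0.332 CPM. H2-Eb2 had 5, 0, 5 and 0 counts.

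Endosomal proteases that process antigen and the invariant chain were abundant and did not follow class II as a group. All 12 genes of this list were expressed, that is, had a mean of at least 1 CPM, and 12 varied beyond counting noise. Of them, 5 were highest in tumour 9 and 4 lowest in tumour 5. The shares of all genes tested were 98.7% beyond noise, 21.6% highest in tumour 9 and 20.3% lowest in tumour 5. Ctsb and Ctsl, cathepsins of most cells, had 581, 708, 1387 and 1081 CPM and 354, 464, 643 and 963 CPM in tumours 1, 5, 9 and 10. Ifi30, the thiol reductase GILT, had the widest spread, with 29.7, 131, 54.7 and 188 CPM, and was highest in tumour 10. The 5 genes highest in tumour 9 were Ctsb, Ctsd, Lgmn, Ctss and March1. Ctss, the protease that makes the last cut of the invariant chain in many antigen-presenting cells, had 21.0, 14.1, 71.2 and 42.3 CPM, and March1, the ubiquitin ligase that removes class II from the surface, had 2.90, 2.17, 12.6 and 3.87 CPM. Ctsd, Lgmn, Ctss and March1 were named after their values were seen. The list's median log2 fold change for tumour 9 over the other tumours was 0.35, beside -0.12 over all genes tested. No gene of the list passed the edgeR test after adjustment.

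The factors of class II promoters did not follow class II as a group. Of 13 factors, 12 were expressed, 4 were highest in tumour 9 (Rfx5, Nfyb, Spi1 and Irf8) and 4 lowest in tumour 5. The shares of all genes tested were 21.6% and 20.3%. The list median in tumour 9 lay 0.12 log2 units above the 4-tumour mean, beside 1.03 for the members. Rfx5, the subunit of RFX that CIITA binds, had 22.7, 20.2, 24.3 and 23.2 CPM in tumours 1, 5, 9 and 10, and Rfxap had 29.6, 23.4, 24.2 and 23.0 CPM. Ep300 and Carm1, coactivator enzymes, had 64.4, 71.2, 61.3 and 35.4 CPM and 160.0, 158, 100.1 and 101 CPM, with neither highest in tumour 9. Spi1, the myeloid factor PU.1, had 4.33, 3.46, 22.3 and 9.57 CPM, and Irf8, a factor of macrophages and dendritic cells, 8.30, 6.51, 30.4 and 16.2 CPM. Rfx5, Spi1 and Irf8 had the order 9, 10, 1 and 5, over a narrow range in Rfx5. Rfx5, Rfxap, Nfyb and Irf8 were named after their values were seen. In the edgeR test of tumour 9, Spi1 had a log2 fold change of 1.95 and an adjusted p of 0.641.

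Interferon-gamma itself was not detected. Ifng had 0 counts in all 4 tumours, which allows at most 0.0524, 0.07, 0.0558 and 0.0892 CPM in tumours 1, 5, 9 and 10, for counting error only. Of its 10-gene axis, 8 genes were expressed, 1 was highest in tumour 9 and 3 were lowest in tumour 5. The shares of all genes tested were 21.6% and 20.3%. Jak1 and the receptor chain Ifngr1 had 106, 127, 74.4 and 71.7 CPM and 43.4, 60.4, 43.2 and 24.1 CPM, both highest in tumour 5, where class II was lowest.

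**Figure D3:**
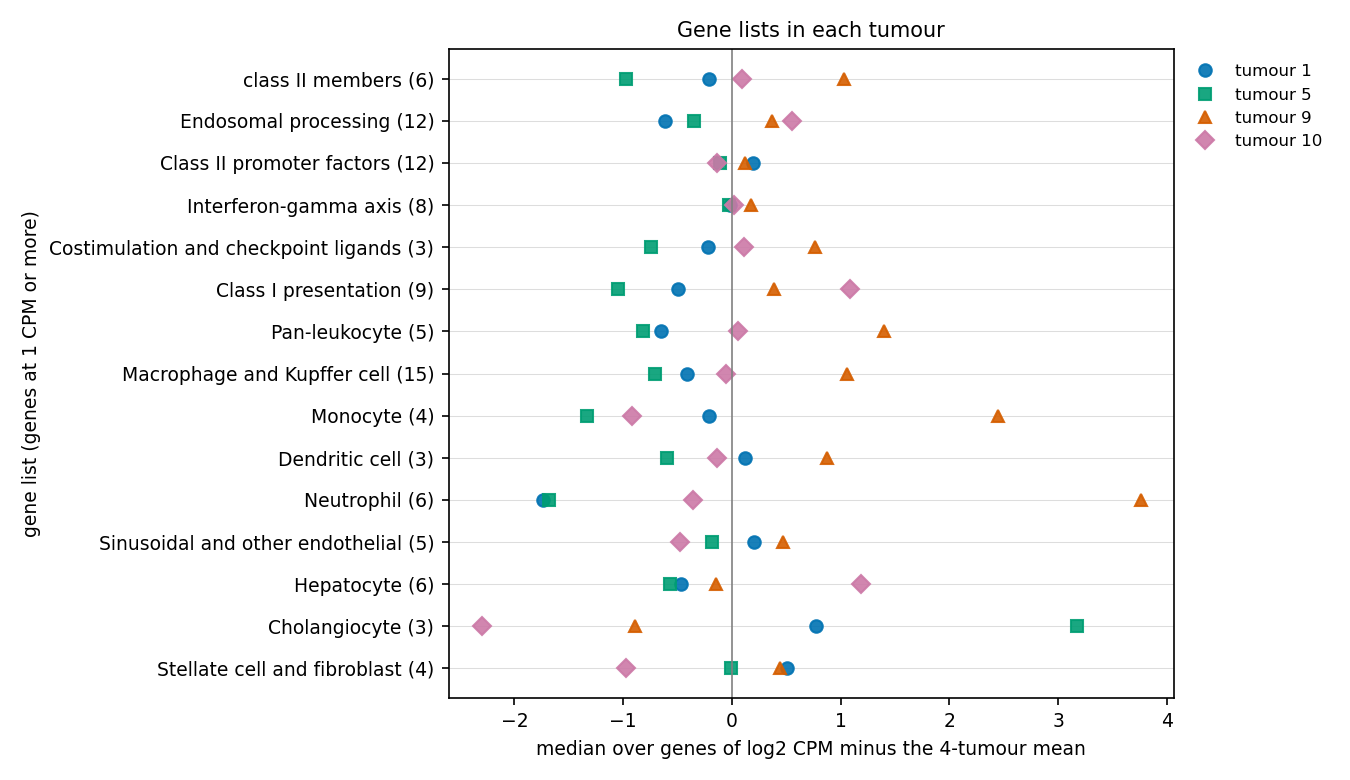
Median over the genes of each list of log2 CPM minus the gene's 4-tumour mean, 1 point per tumour, with the number of genes at a mean of 1 CPM or more in parentheses. The class II members lie at 1.03 in tumour 9 and -0.97 in tumour 5. Several lists lie on the same sides, among them the macrophage list at 1.06 and -0.71. The costimulation and checkpoint list lies at 0.76 and -0.74, and the dendritic cell list at 0.87 and -0.6. The interferon-gamma list stays at 0.18 and -0.03.

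Class II moved with markers of leukocytes and macrophages. All 5 pan-leukocyte genes were expressed and highest in tumour 9, with a summed level of 48.0, 41.9, 202 and 85 CPM in tumours 1, 5, 9 and 10. Ptprc, the leukocyte antigen CD45, had 9.37, 5.09, 30.5 and 12 CPM. In tumour 9, the further leukocyte genes Cd53, Coro1a, Laptm5 and Cd52 reached 25.3, 31.2, 108 and 7.39 CPM, while no other tumour exceeded 12.4, 5.14, 53.0 and 2.56 CPM. Of 16 macrophage and Kupffer cell genes, 15 were expressed, 12 of them highest in tumour 9 and 9 lowest in tumour 5. Among all genes tested, 21.6% were highest in tumour 9 and 20.3% lowest in tumour 5. The summed level of the macrophage list was 387, 309, 1300.2 and 564 CPM in tumours 1, 5, 9 and 10. Csf1r, the macrophage growth factor receptor, had 20.4, 12.8, 47.3 and 21.4 CPM, and Cd5l, a secreted macrophage protein, 88.4, 68.0, 431 and 93.0 CPM. Lyz2, lysozyme, had 50.4, 62.1, 226 and 118 CPM. Clec4f, which marks resident Kupffer cells, had 20.7, 2.99, 0.744 and 0.208 CPM, highest in tumour 1. Timd4, Marco and Vsig4, also genes of resident Kupffer cells and chosen after their values were seen, were highest in tumour 1 too, at 1.80, 8.67 and 7.48 CPM. For tumour 9 over the other 3, the median log2 fold change was 1.35 for the 15 macrophage genes and 1.79 for the 5 pan-leukocyte genes. It was -0.12 over all genes tested, and no gene of either list passed the edgeR test after adjustment. The part of cell numbers in the class II levels was not tested.

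H2-Ab1 differed less between tumours when set against Csf1r, Ptprc or Itgax, the 3 markers for which ratios were taken. This does not extend to all markers above: Clec4f and Marco were highest in tumour 1 and lowest in tumour 10, unlike H2-Ab1. H2-Ab1 over Csf1r, in CPM, was 0.379, 0.327, 0.379 and 0.477 in tumours 1, 5, 9 and 10, a highest value 1.46 times the lowest. H2-Ab1 over Ptprc was 0.826, 0.821, 0.589 and 0.856, lowest in tumour 9. H2-Ab1 over Itgax, the integrin CD11c of dendritic cells and some macrophages, was 2.67, 1.74, 2.52 and 2.29. Tumour 9 was not the highest in any of these 3 ratios, although H2-Ab1 itself was highest there.

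**Figure D4:**
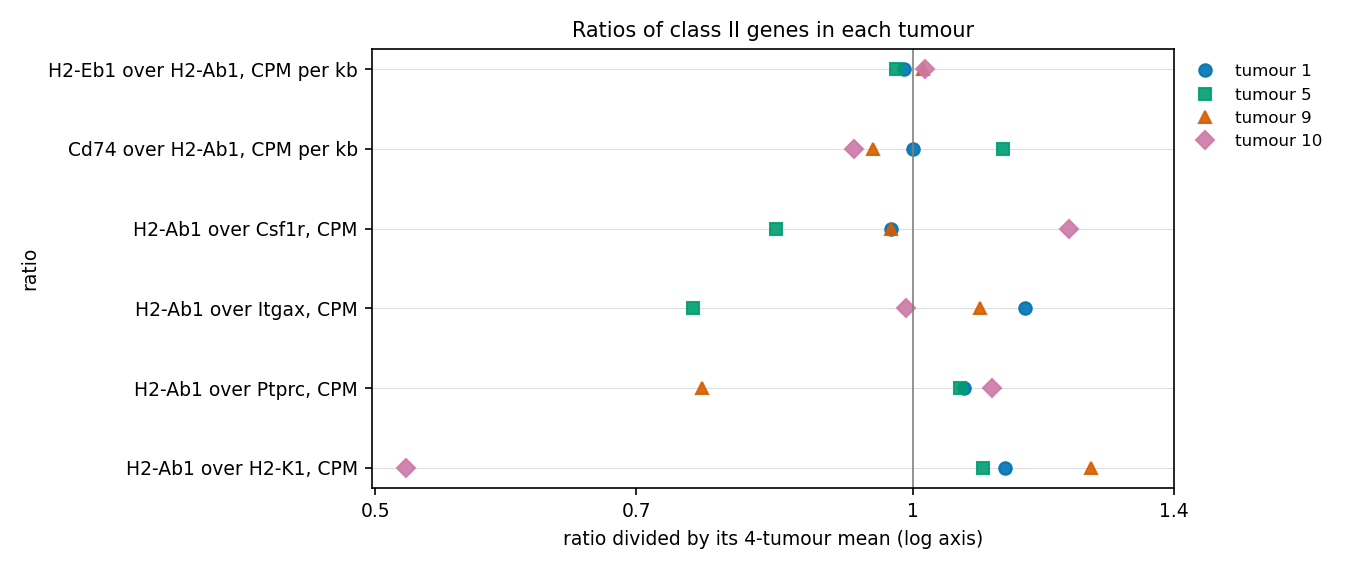
Ratios of class II genes to each other and to marker genes in each tumour, each divided by its 4-tumour mean, on a log axis. H2-Eb1 over H2-Ab1 hardly varies (0.643 to 0.667), H2-Ab1 over Ptprc is lowest in tumour 9 at 0.589, and H2-Ab1 over H2-K1 is lowest in tumour 10 at 0.0242.

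Most dendritic cell and B cell genes lay below a mean of 1 CPM. All monocyte genes passed it, but Ly6c2 and Ccr2 only through tumour 9. Of 12 dendritic cell genes, 3 were expressed: Itgax at 2.90, 2.40, 7.11 and 4.46 CPM, Clec9a, a receptor of cross-presenting dendritic cells, at 1.62, 0.747, 2.55 and 0.565 CPM, and Fscn1 at 7.81, 8.78, 5.96 and 6.54 CPM in tumours 1, 5, 9 and 10. Flt3, which defines the dendritic cell lineage, had 13, 3, 66 and 9 counts, highest in tumour 9 at 1.23 CPM. Of 7 B cell genes, 2 were expressed, Cd22 and Blnk, both highest in tumour 9 at 2.33 and 2.51 CPM. The defining B cell marker Ms4a1 stayed low, at 3, 0, 3 and 3 counts. The summed level of the B cell list was 3.39, 2.03, 6.18 and 3.42 CPM. Monocyte genes were all 4 expressed and highest in tumour 9, with Ly6c2 at 0.629, 0.420, 8.00 and 0.387 CPM, Ccr2 at 1.80, 0.187, 3.89 and 0.654 CPM, Plac8 at 29.7, 35.1, 40.0 and 11.4 CPM and Chil3 at 1.21, 1.38, 61.1 and 2.59 CPM. For Ly6c2 and Ccr2 the filter itself rested on tumour 9, so their place in this count was partly set by it.

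The T cells that read class II were represented by few reads. None of 7 T cell genes reached a mean of 1 CPM, and Cd3e, a chain of the T cell receptor complex, had 9, 11, 18 and 2 counts in tumours 1, 5, 9 and 10. Cd4, the co-receptor that binds class II, had 0.437, 0.514, 1.66 and 2.50 CPM, highest in tumour 10. Lag3, an inhibitory receptor for class II, had 0.472, 0.420, 1.21 and 0.714 CPM, in the order 9, 10, 1 and 5. Of 6 costimulatory and checkpoint ligands, 3 were expressed. Cd86, the costimulatory partner of CD28, was highest in tumour 9, at 2.78, 1.91, 8.36 and 2.44 CPM, and was named after its values were seen. Icosl had 9.80, 7.45, 7.20 and 8.92 CPM and Cd274, which encodes PD-L1, 2.31, 1.68, 6.48 and 8.38 CPM, highest in tumour 10.

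Class I presentation took another order. All 9 class I genes were expressed, 8 were lowest in tumour 5, as the classical class II chains were, but 1 was highest in tumour 9. The shares of all genes tested were 20.3% lowest in tumour 5 and 21.6% highest in tumour 9. Nlrc5, which does for class I what CIITA does for class II, had 2.92, 0.934, 4.50 and 15.1 CPM in tumours 1, 5, 9 and 10. B2m and H2-D1, the light chain and a heavy chain of class I, had 165, 137, 238 and 469 CPM and 98.2, 65.3, 224 and 598 CPM. H2-Ab1 over the class I gene H2-K1 was 0.0524, 0.0509, 0.0585 and 0.0242, lowest in tumour 10. In the edgeR test of tumour 10, 5 of 9 class I genes passed an unadjusted p of 0.05 as higher, where 13.9% of all genes did, and 0 passed after adjustment.

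Markers of cells that are not leukocytes had their highest levels in different tumours. The share of all genes tested that were highest in tumour 9 was 21.6%. The 6 hepatocyte genes were all expressed, with 1 highest in tumour 9, Apoa1, and Alb, albumin, highest in tumour 10. Tat, a hepatocyte enzyme, had 1166 CPM in tumour 10, against 41.0, 5.16 and 4.60 CPM in tumours 1, 5 and 9. The 3 cholangiocyte genes were expressed and none was highest in tumour 9, with the bile duct keratin Krt19 at 1.45, 11.5, 0.428 and 0.0297 CPM in tumours 1, 5, 9 and 10. Epcam was highest in tumour 5 too, at 9.71 CPM, and Sox9 in tumour 1, at 2.31 CPM. Of 6 endothelial genes, 5 were expressed and 3 highest in tumour 9, among them Pecam1 at 16, 18.7, 33.5 and 25.1 CPM and Kdr at 14.8, 17.0, 20.8 and 20.5 CPM, while Lyve1 was highest in tumour 1 at 6.53 CPM. Of the 4 stellate cell and fibroblast genes, all expressed, 1 was highest in tumour 9, Col1a1, at 101, 62.8, 115 and 26.9 CPM, while Lrat (3.25 CPM) and Des (4.94 CPM) peaked in tumour 1 and Pdgfrb (17.8 CPM) in tumour 5.

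The genes with the profile most like that of class II were searched among the 13129 genes tested, leaving out the members. The likeness was the root mean square distance over the 4 tumours, in log2 CPM centred on each gene's mean, from the mean profile of the 6 tested members. The 10 nearest genes other than members were Lrrc25, Plekho2, Slc16a9, Il1a, Tnfaip2, Neb, Cd48, Ttc39b, Ms4a6b and Vamp5, at distances of 0.016 to 0.0875, where the members themselves lay at 0.0637 to 0.256 and the median gene at 0.814. Lrrc25 had 3.30, 2.17, 8.51 and 4.43 CPM in tumours 1, 5, 9 and 10, and Cd48, a surface protein of leukocytes, 1.97, 1.4, 4.82 and 2.59 CPM. Il1a encodes the cytokine interleukin 1 alpha, and Neb the muscle protein nebulin. As near as the farthest member were 187 genes (1.42%).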

How the data were processed

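Poly-A RNA of 4 tumours was sequenced from TruSeq libraries, per the labels' protocols. The submitters' processing notes name FastQC 0.11.8 and GRCm38. Aligner, counter and use of strand: not given in the sources used here. Reads of a gene and an antisense partner therefore cannot be separated. The authors' deposited counts are whole numbers per RefSeq transcript row (33984 rows). The deposited FPKM, so named per the file headers, gave transcript lengths, taken as counts per kilobase and per 1000000 counts over all rows, that were whole within 0.01 bases for 100% of detected values. The deposited TPM sums to 1000000 per library and was used only as a check.

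Each gene was represented by its row with the highest mean count. TMM factors, CPM and tests came from edgeR 4.0.16 in R 4.3.3, with DESeq2 1.42.0 and limma 3.58.1 as alternatives. Log2 CPM used a prior count of 2. Genes with a mean of at least 1 CPM were tested, by a Poisson heterogeneity test and by edgeR's two-sided quasi-likelihood test of each tumour against the other 3, at an adjusted p of 0.05. Both tests were tried on simulated counts. Intervals are exact at 95%, and they and floors of 3 counts cover counting error only.

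The members and the 18 gene lists (133 genes) were chosen with earlier results of these data known. Named were the members, the 2 genes with the highest mean and the 1 with the largest SD of each list, all of a list of up to 5 genes, defining markers and the 10 nearest profiles, and others are marked as chosen later. Some genes covered by this rule are not reported here. The listed genes Adgre1 and H2-Ea were found under older symbols through RefSeq synonyms, Emr1 and H2-Ea-ps. Gene coordinates came from GENCODE M21 (GRCm38). Alternatives covered scaling, row choice, shared counts, filters, prior counts, tools and leaving out each tumour.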

Additional observations from a re-analysis of the deposited data

Results flagged for a closer look

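Dixon's gap test was run on 66 sets of 4 tumours, over the members, the named genes and the ratios. In 6 sets, 1 tumour lay far from the other 3. Chance flags about 1 in 20 sets that are independent and unselected. Some genes were named for the largest SD of their list, and all sets share the 4 libraries, so this rate is no yardstick here. None of the 6 flagged sets was the level of a class II member. The log2 ratio of H2-Ab1 to Ptprc was -0.76 in tumour 9, below the other 3, which lay close together. The log2 ratio of H2-Ab1 to H2-K1 was -5.37 in tumour 10, below the other 3. In tumour 9, 4 marker genes lay above the other 3 tumours on the log2 CPM scale: Coro1a at 4.96, Cd5l at 8.75, Ly6c2 at 3.01 and Ngp at 6.85. These genes mark leukocytes, macrophages, monocytes and neutrophil precursors, and their part in the class II levels of tumour 9 was not tested.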

How the results depend on the processing

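No alternative called a member in the test of a single tumour against the other 3, and 6 or 7 members, all that were tested, varied beyond counting noise under each of 11 alternatives. Over all genes, counts called for tumours 1, 5, 9 and 10 were 29, 45, 318 and 1356 with the DESeq2 Wald test, against 0 with edgeR. With no filter on low counts edgeR gave 2 for tumour 1, 6 for tumour 9 and 123 for tumour 10, and adjusted within the tumour alone it gave 230 for tumour 10. With each other tumour left out in turn, the counts were 0 to 2 for tumour 1 and 0 to 1 for tumour 5. They were 0 to 28 for tumour 9 (28 without tumour 10) and 0 to 407 for tumour 10 (407 without tumour 9). The cause was not tested. Without tumour 10, the members' log2 fold changes for tumour 9 ran from 1.44 for Cd74 to 1.8 for H2-Aa. The class II deviation of tumour 9 lay between 0.68 and 1.10 and that of tumour 5 between -0.96 and -0.55 over the alternatives. Those of tumours 1 and 10 took both signs, from -0.52 to 0.11 (above 0 without tumour 9) and from -0.17 to 0.44 (below 0 with total counts alone and without tumour 5). Summing transcript rows moved the mean log2 CPM of Ciita to 0.31, since its rows hold the same reads. No paired analysis was possible because there is 1 group. Depth limits Ciita, the H2-DM genes and the other class II chains, where counting intervals of neighbouring tumours overlap.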
